A study of Apis mellifera with 96 samples.

Results

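The storage hexamerins are 4 genes of the honey bee (Apis mellifera), Hex70a, Hex110, Hex70c and Hex70b, and their transcripts were followed in whole adult workers. The genes were chosen by name, as the members of the family listed among the 9935 genes of the count table. Hex70a, Hex110 and Hex70c passed the filter on low counts and were tested among 6753 genes. Hex70b did not pass it, and its values are given apart.

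Hexamerins are blood proteins of insects that belong to the same superfamily as the oxygen carrier haemocyanin and the prophenoloxidases. They are made by the fat body, the organ that in insects combines the roles of liver and adipose tissue, secreted into the haemolymph, and laid down as a store of amino acids that is drawn on in the pupa. In honey bees Hex70b and Hex70c are known chiefly as larval genes, while Hex70a and Hex110, a hexamerin rich in glutamine and glutamic acid, are also expressed in adult workers.

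The study concerns life history and susceptibility to the insecticide imidacloprid, but the bees whose RNA was sequenced were untreated, and their genotype is given as WT. Adults 1 day old from 6 origin colonies, numbered 107, 109, 115, 122, 127 and 137, were shared out over 3 nuclear hives with queens and honey frames. Foragers, which collect nectar and pollen, and nurses, which feed the brood, were caught on day 26 and on day 7 and frozen. Libraries were made from total RNA of the whole body by TagSeq, in which reads come from the 3' ends of transcripts, so levels are compared between groups and not between genes.

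The libraries analysed were 24 of foragers and 24 of nurses at day 26, and 22 of foragers and 22 of nurses at day 7. There were 4 libraries for every combination of colony, role and day, except foragers of colonies 107 and 127 at day 7, with 3 each, and nurses of colony 127 at day 7, with 2. Totals lay between 197805 and 2300891 counts on genes, with a median of 1288440.5. Replicate 1 of the colony 107 foragers at day 7, with 81736 counts, was left out. It is not stated if a library is 1 bee or a pool, so p-values measure the spread between libraries, and age cannot be told apart from capture day or time spent in the hives. In 6 libraries the profile of mitochondrial transcripts lay at least 1.8 times as far from the labelled colony as from another. Smaller departures were not listed. In 1 forager library, colony 122 day 26 replicate 2, the summed brood food gland transcripts (112970 CPM) were near the nurse median of that day (117860 CPM). In 3 nurse libraries they were below the forager median of their day. Other libraries of both roles lay between these levels and were kept. The role differences of Hex70a and Hex110 over both days, and the calls within colonies, are given with and without the libraries set apart here.

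Hexamerin transcripts were scarcer in foragers than in nurses. Hex70a and Hex110 were lower in foragers at both days and Hex70c was lower by a smaller factor, while no difference was detected for Hex70b. In edgeR's quasi-likelihood test with Benjamini-Hochberg adjustment at 0.05, all 3 tested hexamerins were lower in foragers over both days, where 14.8% of all tested genes were lower. Hex70c is rare and passed the filter mainly through nurses, in which it is higher. Hex70b, also rare but alike in both roles, did not pass. That all 3 tested genes were lower thus follows in part from the filter. Ranked by log2 fold change from the most negative among the 6753 genes, Hex110 stood at place 4, Hex70a at place 9 and Hex70c at place 59. In a whole body, fewer fat body cells and less RNA per cell cannot be told apart.

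**Figure D1:**
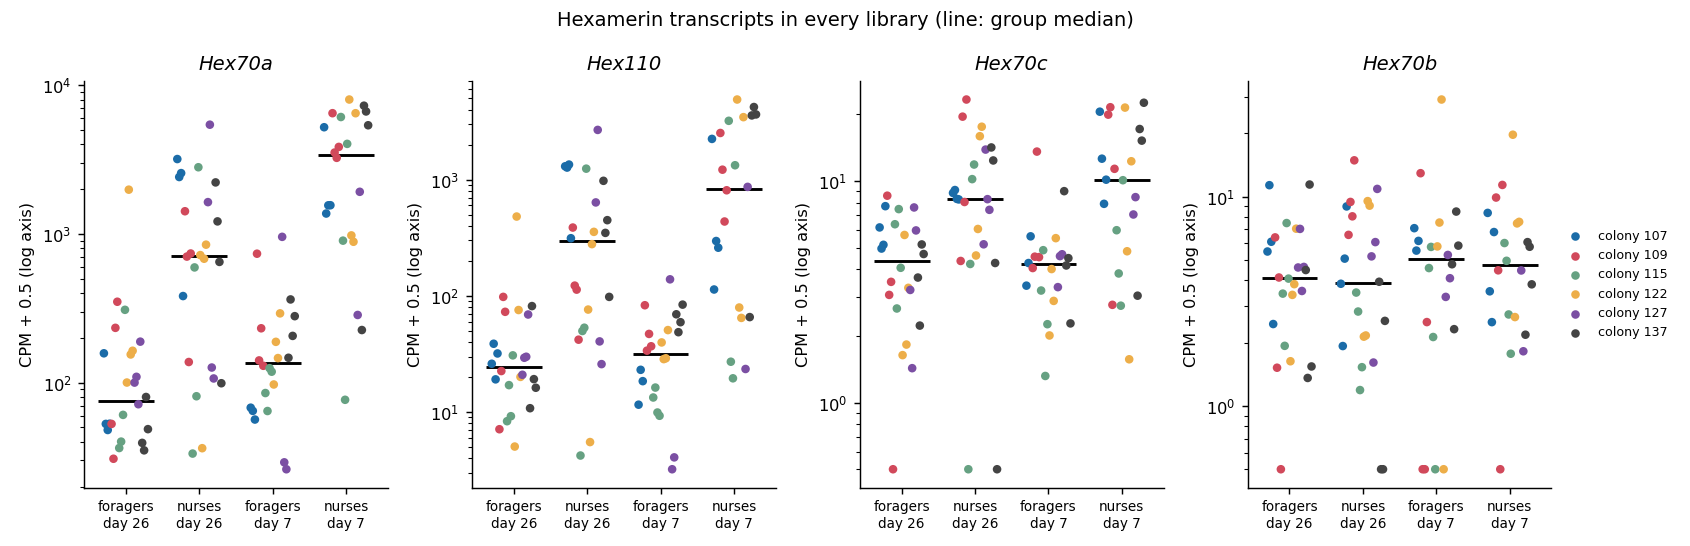
Level of each hexamerin in every library, in CPM plus 0.5 on a log axis, by role and day and coloured by colony, with a line at the group median. Hex70a has medians of 75.2 CPM in foragers and 711 CPM in nurses at day 26, and of 135 CPM in foragers and 3381 CPM in nurses at day 7. Nurses spread more widely than foragers for Hex70a and Hex110, and the medians of Hex70b lie close together in all 4 groups.

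Levels are in CPM, counts relative to the scaled total of the library. Hex70a at day 26 ran between 30.2 and 1981 CPM in foragers, with a median of 75.2, and between 32.8 and 5417 CPM in nurses, with a median of 711. At day 7 it ran between 25.6 and 954 CPM in foragers, with a median of 135, and between 76.1 and 7998 CPM in nurses, with a median of 3381. The groups overlapped at both days, and some nurses were as low as foragers. At day 26 a single forager, at 1981 CPM, lay above the nurse median and the next highest forager held 349 CPM, while at day 7 no forager reached the nurse median. In the fit, Hex70a was 11.8-fold lower in foragers over both days (log2 fold change -3.56 ± 0.35 SE, adjusted p = 1.25e-12). It was 8.25-fold lower at day 26 (-3.04 ± 0.47 SE, adjusted p = 1.73e-06), where 8.94% of all tested genes were lower, and 16.8-fold lower at day 7 (-4.07 ± 0.53 SE, adjusted p = 1.21e-08), where 11.1% were.

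Hex110 at day 26 ran between 4.55 and 481 CPM in foragers, with a median of 23.8, and between 3.73 and 2676 CPM in nurses, with a median of 295. At day 7 it ran between 2.72 and 138 CPM in foragers, with a median of 30.9, and between 19.0 and 4886 CPM in nurses, with a median of 837. Its nurse libraries covered a wider range of folds than those of Hex70a, and the lowest library held 4 counts among foragers and 5 among nurses, so the roles overlapped. The fit gave a 19.4-fold lower level in foragers over both days (-4.28 ± 0.43 SE, adjusted p = 2.03e-12). The difference was 10.2-fold at day 26 (-3.35 ± 0.56 SE, adjusted p = 8.31e-06) and 37.0-fold at day 7 (-5.21 ± 0.66 SE, adjusted p = 6.54e-09). Among the alternatives, the day 26 difference ran between -2.06 on the log2 scale without the libraries numbered replicate 1 (adjusted p = 0.0154), and -4.39 without those numbered replicate 2 (adjusted p = 0.000205).

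The values of Hex70c rest on few counts, 814 in all 92 libraries. At day 26 it ran between 0 and 8.09 CPM in foragers, with a median of 3.87, and between 0 and 22.8 CPM in nurses, with a median of 7.80. At day 7 it ran between 0.818 and 13.1 CPM in foragers, with a median of 3.71, and between 1.07 and 22.1 CPM in nurses, with a median of 9.62. The roles overlapped over most of the forager range, with 13 of 46 nurses above the highest forager. Hex70c was 2.41-fold lower in foragers over both days (-1.27 ± 0.20 SE, adjusted p = 2.66e-07), with -1.14 ± 0.27 SE at day 26 (adjusted p = 0.00133) and -1.40 ± 0.29 SE at day 7 (adjusted p = 0.000118). The day 26 difference missed the threshold without the libraries marked #2 in the labels (-0.93, adjusted p = 0.0508).

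A count of libraries shows the same overlap. For Hex70a, 18 of 46 nurses lay above the highest forager, and 26 above the second highest. For Hex110 the counts were 19 and 28 of 46. The highest forager for both genes was colony 122 day 26 replicate 2. Without that library, the role difference over both days was -3.73 for Hex70a (adjusted p = 1.21e-13) and -4.46 for Hex110 (adjusted p = 4.23e-13) in edgeR's test. Removing the highest forager widens the difference by construction, so these values add no support. Without the 6 libraries of another mitochondrial profile it was -3.96 for Hex70a (adjusted p = 7.72e-12) and -4.70 for Hex110 (adjusted p = 4.83e-11), and at day 7 it was -4.71 for Hex70a (adjusted p = 2.24e-08) and -5.92 for Hex110 (adjusted p = 3.65e-08). At day 26, without the same 6, it was -3.22 for Hex70a (adjusted p = 7.97e-06) and -3.49 for Hex110 (adjusted p = 5.64e-05) in edgeR's test. Most of these 6 are foragers. They include the highest forager of day 7 for both genes, colony 127 replicate 1, at 954 CPM of Hex70a and 138 CPM of Hex110. A forager of colony 115 at day 26 with 308 CPM of Hex70a is also among them. Leaving out high foragers widens the difference, so these values add no support either.

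Together the 4 hexamerins took a small share of all counts on genes. At day 26 the median share was 0.0124% in foragers and 0.0887% in nurses, and at day 7 it was 0.0186% in foragers and 0.366% in nurses. The highest share of any library was 1.05%, in a nurse at day 7. By group median, the balance between Hex70a and Hex110 moved less than either level. For each 100 counts of Hex70a there were, by group median, 26.5 counts of Hex110 in foragers and 40.9 in nurses at day 26, and 18.4 in foragers and 31.0 in nurses at day 7. Single libraries ran between 4.57 and 235 in foragers and between 5.63 and 99.0 in nurses at day 26. At day 7 they ran between 7.46 and 47.1 in foragers and between 2.96 and 67.7 in nurses. Since tags are not scaled between genes, only the change of this balance between groups can be read, and that change was not tested.

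The next comparison asked how the levels differ between day 26 and day 7. Over both roles the median of Hex70a was 155 CPM at day 26 and 327 CPM at day 7, with wide overlap. Hex70a was lower at day 26, by 1.91-fold over both roles (-0.94 ± 0.32 SE, adjusted p = 0.0225), where 12.4% of all tested genes were lower. Hex110 did not pass (-0.64 ± 0.38 SE, adjusted p = 0.225), nor did Hex70c (-0.03 ± 0.22 SE, adjusted p = 0.946). The days were then compared within each role. Nurses had medians of 711 CPM of Hex70a and 295 CPM of Hex110 at day 26, against 3381 and 837 CPM at day 7, and their ranges overlapped. Within nurses, Hex70a was 2.73-fold lower at day 26 (-1.45 ± 0.45 SE, adjusted p = 0.0217) and Hex110 2.96-fold lower (-1.57 ± 0.53 SE, adjusted p = 0.0344), where 6.92% of all tested genes were lower. Hex70c within nurses gave -0.16 ± 0.25 SE (adjusted p = 0.750).

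Within foragers none of the 3 tested hexamerins passed between days, where 18.9% of all tested genes did in either direction. Hex70a gave -0.42 ± 0.46 SE (adjusted p = 0.579), Hex110 0.30 ± 0.56 SE (adjusted p = 0.772) and Hex70c 0.11 ± 0.30 SE (adjusted p = 0.859). The sign for Hex110 turned without the colony 122 forager at day 26 with nurse-like gland transcripts (-0.06, adjusted p = 0.962). Whether nurses and foragers differ in their change between days was tested by the interaction of role and day, in which 0.829% of all genes passed. Hex110 gave 1.86 ± 0.77 SE (adjusted p = 0.265), Hex70a 1.03 ± 0.64 SE (adjusted p = 0.520) and Hex70c 0.27 ± 0.40 SE (adjusted p = 0.837), so a difference in the day effect between roles was not shown.

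The day differences depended on which libraries were counted. For Hex70a over both roles, 7 of 21 alternatives missed the threshold: those without replicate 2 (adjusted p = 0.158), without replicate 3 (0.0824), without the libraries marked #2 (0.0912), without colony 109 (0.122), without colony 137 (0.194), without the libraries of another mitochondrial profile (0.0768), and with counts summed per colony, role and day (0.219). Within nurses, Hex70a was not called in 7 of 21 alternatives and Hex110 in 8 of 21. These were the leave-outs of replicate 2, of replicate 3, of the libraries marked #2 and of colonies 109, 122 and 137, and the summed counts, with colony 115 added for Hex110. The fold changes were negative in each of the 21 alternatives, between -2.31 and -1.15 for Hex70a and between -2.43 and -1.16 for Hex110. Each of the leave-outs has fewer libraries than the full fit.

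**Figure D2:**
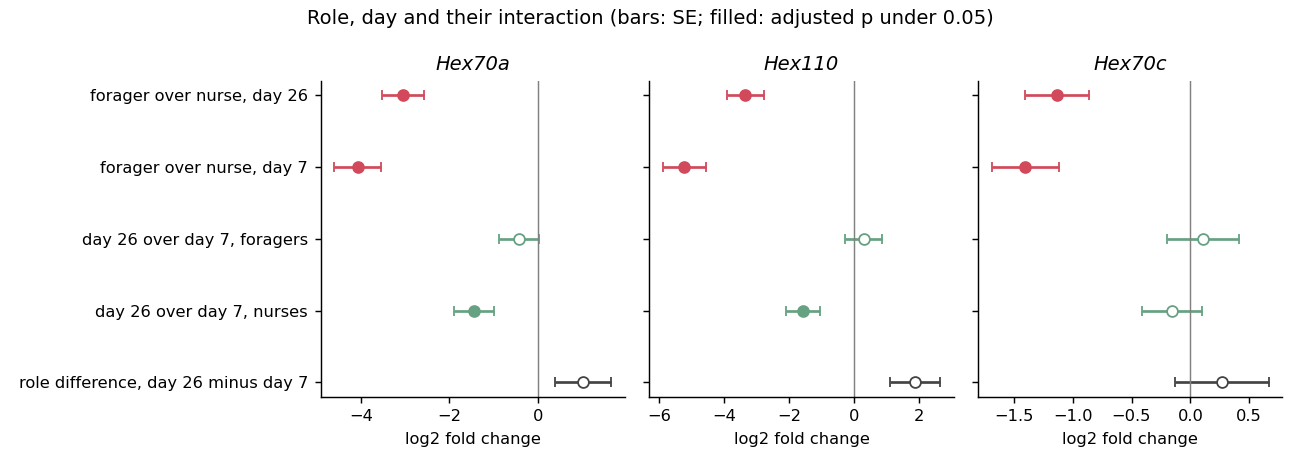
Log2 fold changes of Hex70a, Hex110 and Hex70c with their standard errors (bars), for foragers over nurses at day 26 and day 7, for day 26 over day 7 in foragers and in nurses, and for the change of the role difference between days, with filled points where the adjusted p was under 0.05. All 6 role differences are filled and negative, the day differences are filled for Hex70a and Hex110 in nurses, and no interaction is filled.

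Origin colonies did not differ detectably in their mean hexamerin levels. The test over the 6 colonies gave adjusted p = 0.704 for Hex70a, 0.582 for Hex110 and 0.301 for Hex70c in edgeR's quasi-likelihood test, in which 17.8% of all genes passed. The role difference was also not shown to vary between colonies (adjusted p = 0.738, 0.847 and 0.948 in the same order), in a test that called 0 of the 6753 genes, with 512 at an unadjusted p under 0.05. The same test of the day difference between colonies gave 0.738, 0.811 and 0.886, with 0.0444% of genes called.

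Within colonies, each of the 3 tested hexamerins had a negative forager over nurse fold in 6 of 6 colonies. The share of all tested genes with the same sign in 6 of 6 colonies was not computed. The difference over all colonies is the mean of these folds, so their shared sign is a description only. Hex70a was called lower in colonies 107 (-5.03 ± 0.97 SE), 137 (-4.34 ± 0.87 SE), 115 (-3.91 ± 0.85 SE) and 109 (-2.996 ± 0.814 SE), but not in 127 (-2.84 ± 0.90 SE, adjusted p = 0.205) or 122 (-2.23 ± 0.79 SE, adjusted p = 0.176). The share of all tested genes called lower was 8.63% in colony 107, 4.18% in 137, 0.607% in 115, 3.15% in 109, 0.207% in 127 and 0.0296% in 122, so few genes of any kind passed in the colonies where Hex70a did not. Hex110 was called in the same 4 colonies, with its most negative fold in colony 115 (-5.52 ± 1.09 SE). Hex70c was called in colony 109 alone (-1.49 ± 0.45 SE, adjusted p = 0.0312). Without the libraries numbered replicate 2, Hex70a and Hex110 were called in 1 colony each and Hex70c in none. Without replicate 3 or without the libraries marked #2, Hex70a and Hex110 were called in 2 colonies each and Hex70c in none. Without replicate 1, which left 5 colonies, the counts were 4 for Hex70a, 3 for Hex110 and 1 for Hex70c. Leaving out the libraries whose gland transcripts went against their role raised the counts. These libraries were chosen after seeing the data and had hexamerin levels of the other role, so the rise follows from the choice and adds no support. Without the colony 122 forager with nurse-like gland transcripts, Hex70a and Hex110 were called in 5 of 6 colonies each and Hex70c in 2. Without all 4 of them, Hex70a was called in 5 colonies, Hex110 in 6 and Hex70c in 3. Without the libraries of another mitochondrial profile Hex70a and Hex110 were called in 4 colonies each and Hex70c in 1, as with them.

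**Figure D3:**
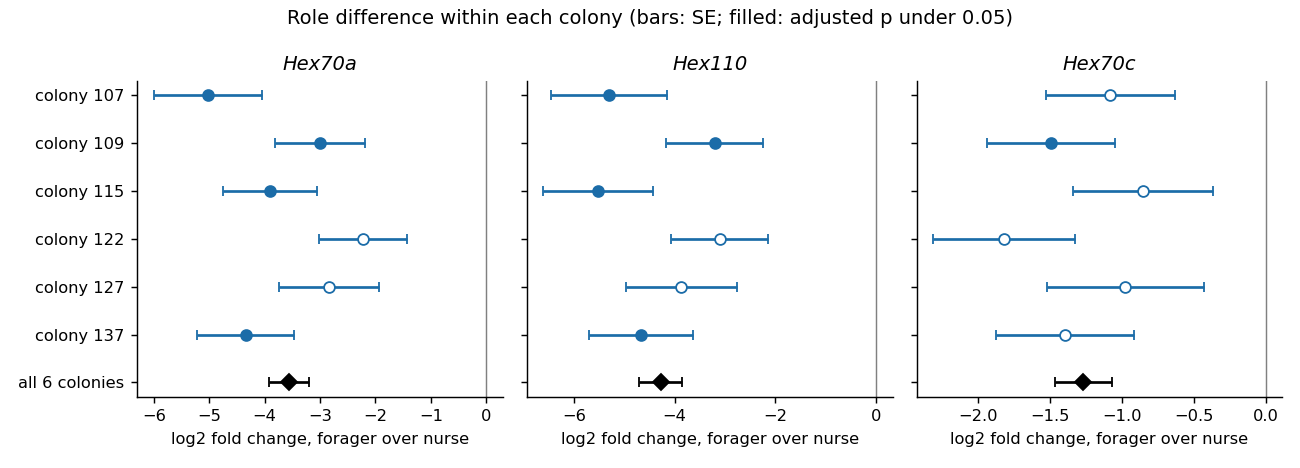
Log2 fold change of foragers over nurses within each colony and over all 6, with its standard error (bar), filled where the adjusted p was under 0.05. Every point lies below 0, with Hex70a between -5.03 in colony 107 and -2.23 in colony 122.

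The levels by colony show where the roles met. In colony 107, Hex70a had a median of 55.9 CPM in foragers and 1983 CPM in nurses, and the highest forager, at 157 CPM, lay below the lowest nurse, at 381 CPM. It was the one colony in which the roles did not overlap for Hex70a over both days, and the same held for Hex110, with 38.2 CPM in the highest forager and 113 CPM in the lowest nurse. The share of all tested genes without overlap in colony 107 was not computed. In colony 137 the median of Hex70a was 113 CPM in foragers and 1714 CPM in nurses, and in colony 109 it was 186 CPM in foragers and 2331 CPM in nurses.

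In colony 122 at day 26, Hex70a was at 99.5, 154, 163 and 1981 CPM in foragers and at 35.7, 680, 719 and 845 CPM in nurses. A single library of each role thus lay outside the range of its own group, on the side of the other role. In colony 115 at day 26 the foragers held 35.8, 39.6, 60.1 and 308 CPM and the nurses 32.8, 80.4, 594 and 2803 CPM. At day 7 the same colony held 63.9, 84.5, 118 and 124 CPM in foragers and 76.1, 899, 4025 and 6100 CPM in nurses, again with 1 nurse among the foragers.

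Day by day, the roles were apart for Hex70a in 2 of 6 colonies at day 26 and in 3 of 6 at day 7. Hex110 was apart in 2 and in 4 colonies, and Hex70c in 1 and in 2. Hex70b, for which no role difference was detected, was apart in 1 colony at day 26 and in 0 at day 7. With so few libraries per role and colony, groups can part by chance. The share of all tested genes that were apart was not computed, so these counts are a description only. The nurse median was above the forager median in 6 of 6 colonies at each day for Hex70a, Hex110 and Hex70c. For how many of all tested genes this held was not computed either. Hex70b had the higher median in nurses in 3 of 6 colonies at each day.

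Hex70b was at the limit of detection, with 593 counts in all 92 libraries and none in 8 of them. At day 26 it ran between 0 and 10.9 CPM in foragers, with a median of 3.58, and between 0 and 14.4 CPM in nurses, with a median of 3.38. At day 7 it ran between 0 and 28.5 CPM in foragers, with a median of 4.51, and between 0 and 19.2 CPM in nurses, with a median of 4.19. Over all colonies no role stood apart. A library with no count allows a level of up to 2.43 to 15.1 CPM, depending on its total (3 counts, counting error only). The mean log2 CPM of foragers minus that of nurses was -0.09 (two-sided permutation test, p = 0.640), and that of day 26 minus day 7 was -0.12 (p = 0.520, adjusted p = 0.640 for both over 2 tests). When all 9840 genes with a count were fitted without the filter, the role difference was 0.06 ± 0.22 SE (adjusted p = 0.997) and the day difference -0.30 ± 0.23 SE (adjusted p = 0.412).

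Hex70a and Hex110 varied together among libraries of the same role and day. Pearson's r of log2 CPM was 0.69 in foragers and 0.90 in nurses at day 26, and 0.86 in foragers and 0.93 in nurses at day 7 (permutation p between 1e-05 and 0.00036, adjusted over 24 relations between 8e-05 and 0.00144, where 1e-05 is the smallest p that these permutations can give). Spearman's rho was 0.50, 0.89, 0.85 and 0.97 in the same order, with adjusted p = 0.0553 for foragers at day 26 and 8e-05 for each of the other groups. Without the 2 libraries farthest from the median of Hex70a, r was 0.40, 0.85, 0.83 and 0.96, so in foragers at day 26 the relation rested on those libraries (adjusted p = 0.248). With values centred on each colony, r stayed between 0.71 and 0.93.

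Hex70c followed them in nurses at day 7 (r = 0.70 with Hex70a, adjusted permutation p = 0.00139, and r = 0.75 with Hex110, adjusted permutation p = 0.00066; rho = 0.73 and 0.75, adjusted p = 0.00072 and 0.00036). Without the 2 farthest libraries these r were 0.62 and 0.69. In nurses at day 26 it gave r = 0.48 with Hex70a (adjusted p = 0.0552) and 0.39 with Hex110 (adjusted p = 0.144). In foragers its r with either lay between -0.17 and 0.18 and did not pass. Hex70b gave no relation with another hexamerin that passed. In all, 6 of 24 relations passed. Low counts limit what these correlations can show for Hex70c and Hex70b.

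**Figure D4:**
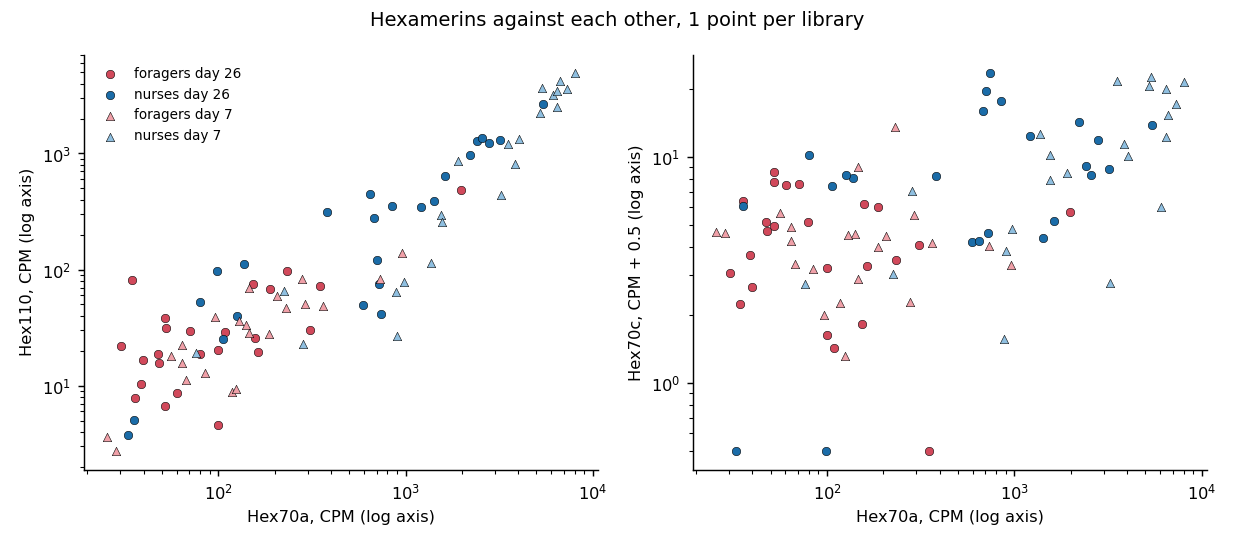
Hex110 against Hex70a (left) and Hex70c plus 0.5 against Hex70a (right), in CPM on log axes, with 1 point for each library and colours and shapes for role and day. Hex110 and Hex70a rise together, with r of 0.90 and 0.93 in nurses at day 26 and day 7, and 0.86 in foragers at day 7. In foragers at day 26, r was 0.69 and fell to 0.40 without the 2 libraries farthest from the median. Hex70c follows Hex70a in nurses at day 7 (r = 0.70), and its relation did not pass in the other groups.

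Transcripts of the nurse brood food gland also differed between roles. These were Mrjp1 to Mrjp5 and Mrjp7, which encode major royal jelly proteins secreted into brood food. All 6 of 6 were lower in foragers, where 14.8% of all tested genes were. Their median log2 fold change was -3.92, and none averaged 0 in either role. This list too was chosen with earlier results of these data known. Their summed level at day 26 ran between 1861 and 112970 CPM in foragers, with a median of 5857, and between 1850 and 260450.0 CPM in nurses, with a median of 117860.0. At day 7 it ran between 584 and 42950.0 CPM in foragers, with a median of 5462, and between 2014 and 207630.0 CPM in nurses, with a median of 116260.0. The part of the gland transcripts in the hexamerin differences was not tested.

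Within groups, log2 CPM of Hex70a and of this sum gave r = 0.64 in foragers (adjusted permutation p = 0.00397 over 16 relations) and 0.76 in nurses (0.00016) at day 26, and 0.41 in foragers (0.0809) and 0.72 in nurses (0.00195) at day 7. The rho values were 0.41, 0.60, 0.51 and 0.72, and r without the 2 libraries farthest in the sum was 0.40, 0.61, 0.24 and 0.83. Hex110 gave r = 0.59 in foragers (0.00615) and 0.74 in nurses (0.00024) at day 26, and 0.50 in foragers (0.0297) and 0.65 in nurses (0.00195) at day 7, with rho of 0.45, 0.61, 0.52 and 0.72. Without the 2 farthest libraries its r was 0.48, 0.50, 0.36 and 0.77. In foragers at day 26 the rho did not pass for Hex70a (adjusted p = 0.0903) or Hex110 (adjusted p = 0.0612). With values centred on each colony, r in foragers at day 7 fell to 0.11 for Hex70a and 0.19 for Hex110. The relation there was thus weaker within colonies, and the centred values were not tested.

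For Hex70c and Hex70b, no relation with the gland sum passed in foragers. Hex70c gave r = -0.10 in foragers (adjusted permutation p = 0.687) and 0.53 in nurses (0.0190) at day 26, and 0.12 in foragers (0.687) and 0.70 in nurses (0.00101) at day 7. Its rho was -0.16 in foragers and 0.38 in nurses at day 26, and 0.02 in foragers and 0.73 in nurses at day 7, and passed in nurses at day 7 (adjusted permutation p = 0.00176) but not at day 26 (0.113). Without the 2 farthest libraries its r in nurses was 0.38 at day 26 and 0.65 at day 7. Hex70b gave r = 0.04 in foragers (0.865) and -0.10 in nurses (0.687) at day 26, and -0.20 in foragers (0.495) and 0.47 in nurses (0.0448) at day 7. In nurses at day 7 its rho was 0.35 (adjusted p = 0.158) and its r without the 2 farthest libraries 0.24, so that relation rested on those libraries.

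The libraries whose gland sum was farthest from that of their role had hexamerin levels of the other role too. The forager of colony 122 at day 26, replicate 2, had a gland sum of 112970 CPM and the highest Hex70a (1981 CPM) and Hex110 (481 CPM) of all foragers. Among nurses, 3 libraries had a gland sum below the forager median of their day. Colony 115 day 26 replicate 2 had a sum of 2065 CPM with 32.8 CPM of Hex70a and 3.73 CPM of Hex110. Colony 122 day 26 replicate 2 had 1850 CPM with 35.7 and 5.02 CPM. Colony 115 day 7 replicate 3 had 2014 CPM with 76.1 and 19.0 CPM. They were the lowest nurses of their day for both genes. Not every library of low gland level followed this pattern. A nurse of colony 109 at day 7, replicate 3, had a sum of 5654 CPM with 3243 CPM of Hex70a, and a forager of colony 127 at day 7, replicate 1, had a sum of 2037 CPM with 954 CPM of Hex70a. Without the 4 libraries whose gland level went against their role, the role difference over both days was -3.83 for Hex70a (adjusted p = 1.59e-15) and -4.56 for Hex110 (adjusted p = 9.07e-15) in edgeR's test, and the day difference within nurses was -1.38 (adjusted p = 0.0175) and -1.50 (adjusted p = 0.0332). Since these 4 were also extreme in both hexamerins, the larger role differences follow from leaving them out and add no support. Whether those 4 libraries carry the right role label cannot be told from the counts.

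**Figure D5:**
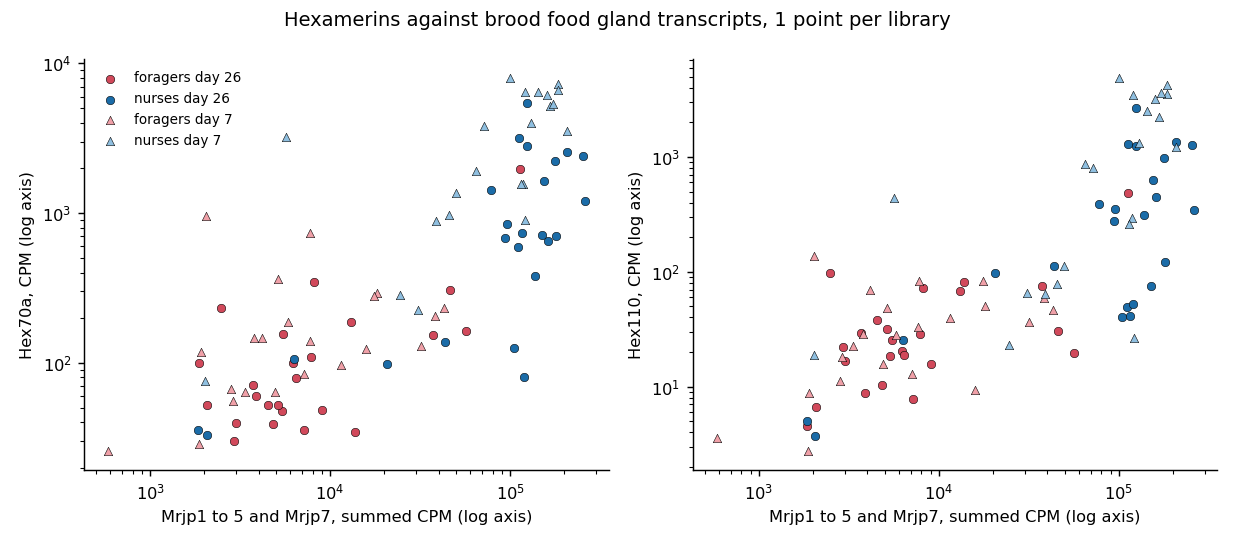
Hex70a (left) and Hex110 (right) against the summed level of Mrjp1 to Mrjp5 and Mrjp7, in CPM on log axes, with 1 point for each library. A forager at day 26 lies among the nurses, at 112970 CPM of gland transcripts and 1981 CPM of Hex70a, and 3 nurses lie among the foragers at sums between 1850 and 2065 CPM.

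Other library properties differed between the groups as well. Unaligned reads made up 69.9% in foragers and 65.6% in nurses, on average. All 4 venom gland transcripts (Melt, Apamin, Mcdp and Pla2) were lower in foragers and at day 26. All 3 young cuticle transcripts were lower at day 26, and 1 of them in foragers. Of 3 flight muscle transcripts, 3 were lower at day 26 and 1 in foragers. Other lists went the other way. All 3 photoreceptor transcripts and the 2 forager gland enzymes, Hbg3 and AGLU2, were higher in foragers and at day 26. Of all tested genes, 14.8% were lower and 15.2% higher in foragers, and 12.4% lower and 13.7% higher at day 26. The venom gland sum had medians of 291 CPM in foragers and 2355 CPM in nurses at day 26, and of 5825 CPM in foragers and 12515 CPM in nurses at day 7. Their part in the hexamerin differences was not tested.

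Vg led the genes whose levels followed the hexamerins over all 92 libraries. It encodes vitellogenin, the yolk precursor of the fat body, and had r = 0.92 with Hex70a and r = 0.92 with Hex110 in log2 CPM. For Hex70a the next were Hex110 (0.92), LOC727522 (0.92), LOC552249 (0.89) and LOC409150 (0.88). For Hex110 they were Hex70a (0.92), LOC727522 (0.91), Vhdl, a very high density lipoprotein (0.90), and LOC725380 (0.87). These values pool roles that differ in level and only order the genes. Within groups, r of Vg with Hex70a was 0.76 in foragers and 0.92 in nurses at day 26, and 0.76 in foragers and 0.91 in nurses at day 7.

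Hex70c had lower values and another order. The genes most like it were LOC409341 (0.69), LOC727522 (0.68), Mrjp3 (0.64), Mrjp4 (0.62) and Fabp, a fatty acid binding protein (0.62). Within foragers these 5 had r between -0.05 and 0.35 with Hex70c, and within nurses between 0.57 and 0.82. The LOC genes are given by their identifiers, with no product named in the sources used here.

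A list of yolk, lipid and iron carriers of the fat body was read beside the hexamerins. Of 7 genes listed, 4 were found in the table by symbol or synonym, and the others may stand under other identifiers. All 4 were lower in foragers, where 14.8% of all tested genes were, with a median log2 fold change of -2.16 against 0.01 for all tested genes. The list was chosen with earlier results of these data known, so this count is no independent support. Vhdl had the most negative fold of the 4 (-4.32 ± 0.40 SE), beside -4.28 for Hex110. Its mean level was 3.67 CPM in foragers and 45.4 CPM in nurses, so its fold rests on few counts in foragers. Vg had -3.07 ± 0.31 SE and Fabp -1.25 ± 0.11 SE. Tsf1, the iron carrier transferrin, had the smallest difference (-0.51 ± 0.18 SE, adjusted p = 0.0233). Between days 1 of the 4 passed, Tsf1, which was higher at day 26 (0.77 ± 0.18 SE, adjusted p = 0.00071). Within nurses, Vg was lower at day 26 (-1.16 ± 0.40 SE, adjusted p = 0.0408) as Hex70a and Hex110 were.

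PPO, a prophenoloxidase of the melanin pathway and a superfamily relative of the hexamerins, did not pass between roles (0.34 ± 0.16 SE, adjusted p = 0.105) or days (-0.23 ± 0.16 SE, adjusted p = 0.310). Its mean level was 36.2 CPM in foragers and 27.5 CPM in nurses.

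Of 22 listed genes of hormone and nutrient signalling, 10 were found in the table by symbol or synonym and 3 passed the filter. Those not found may stand under other identifiers. Kr-h1, a transcription factor induced by juvenile hormone, was higher in foragers (1.18 ± 0.16 SE, adjusted p = 1.95e-08), at 28.2 CPM in foragers and 13.9 CPM in nurses. E75, a nuclear receptor induced by ecdysone, was higher in foragers too (0.72 ± 0.16 SE, adjusted p = 0.000159). Jhe, the esterase that degrades juvenile hormone, was lower in foragers (-1.44 ± 0.18 SE, adjusted p = 1.98e-09), at 70.3 CPM in foragers and 188 CPM in nurses. Kr-h1 and E75 were also higher at day 26, and Jhe did not pass between days (-0.35 ± 0.18 SE, adjusted p = 0.149).

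The position of the genes was read from RefSeq's list for the assembly Amel_HAv3.1, which need not be the build the counts were made on. Hex70a, Hex70b and Hex70c stand next to each other on linkage group 8, and Hex110 lies on linkage group 11. Of the 12 nearest protein-coding genes, 3 on each side of the group and of Hex110, 9 were tested and none passed between roles in edgeR's test (lowest adjusted p = 0.148, for LOC726811), where 30.1% of all tested genes did. Their log2 fold changes lay between -0.23 for LOC726811 and 0.06 for LOC726874.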

How the data were processed

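The authors deposited a table of raw counts, whole numbers of TagSeq reads per gene without any scaling, in 93 columns for the 96 labelled samples. Those of the negative control and of colony 127 nurses at day 7, replicates 2 and 3, were not analysed here. The tools were FastQC, HISAT2, SAMtools and DESeq2, per the submitters' processing notes. Their versions, the counting program, its strand setting, the genome build and the annotation were not given in the sources used here. The 5 entries for unassigned reads stayed out of totals. Reads that aligned to more than 1 place, 3.36% on average, were not assigned, which can lower counts of near-identical genes.

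Counts of 92 libraries were filtered with filterByExpr (minimum count 10 over role and day groups), normalized with TMM and modelled by edgeR's quasi-likelihood functions (edgeR 4.0.16, R 4.3.3; glmQLFit, legacy=FALSE, robust=TRUE). In the model there was 1 mean per combination of colony, role and day (24 in all), leaving 68 residual degrees of freedom. Differences are contrasts of these means, given as log2 fold change ± standard error (SE), with Benjamini-Hochberg adjustment over all 6753 genes at 0.05. The steps were tested on simulated data. CPM were computed by edgeR from the TMM-scaled totals. Correlations used log2 CPM with a prior count of 2 and two-sided permutation tests with 100000 resamples. For a count of 0, a level of up to 3 counts is allowed, which covers counting error only.

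Named genes are the 4 hexamerins, the 5 genes most correlated with each, and up to 4 genes of each list of related function with the smallest p for role. The hexamerins and the lists were chosen with earlier results of these data known. No pair of libraries of a group was a duplicate within sampling noise, though the closest pair (colony 122 nurses at day 26, replicate 2 #2 and replicate 3) differed by a chi-square of 1.52 per gene, against a median of 15.5 over 133 pairs. The next closest pairs were each a replicate and its own #2. They were foragers of colony 127 at day 26, replicate 1 (1.90), and nurses of colony 107 at day 7, replicate 3 (3.755). Libraries marked #2 were counted as separate samples, and their independence was not tested. The alternatives were DESeq2 size factors, unscaled totals, totals without Mrjp genes, no filter, the DESeq2 1.42.0 test, a replicate block, the left-out library included, counts summed per group, and leave-outs of replicates, colonies and libraries. The leave-outs of colony 122 forager day 26 replicate 2, of the libraries of another mitochondrial profile, of 4 libraries whose gland transcripts go against their role and of the 2 libraries farthest from the median were chosen after seeing the data. No sequence table came with the data, so no sequence is shown.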

Additional observations from a re-analysis of the deposited data

Results flagged for a closer look

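In 13 of 84 groups of 4 libraries (each hexamerin in each colony, role and day), 1 library lay far from the other 3, as judged by its gap to them against the range of the group. For independent and normally distributed values, chance gives about 1 in 20, or 4.2 here. CPM are skewed and the genes share libraries, so 13 against 4.2 does not measure an excess over chance.

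For Hex70a, the forager of colony 122 at day 26, replicate 2, held 1981 CPM, where the other 3 lay between 99.5 and 163 CPM. In colony 115 the forager of day 26, replicate 1, held 308 CPM, above 35.8 to 60.1 CPM, and in colony 107 the forager of day 26, replicate 1, held 157 CPM, above 47.5 to 52.4 CPM. The forager of colony 109 at day 7, replicate 1, held 735 CPM, above 129 to 231 CPM. Among nurses, colony 107 at day 7, replicate 1, held 5208 CPM, above 1369 to 1556 CPM.

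For Hex110, the same forager of colony 122 held 481 CPM, above 4.55 to 75.0 CPM, and the forager of colony 137 at day 26, replicate 2, held 81.1 CPM, above 10.3 to 18.7 CPM. The nurse of colony 107 at day 7, replicate 1, held 2239 CPM, above 113 to 296 CPM, and the nurse of colony 115 at day 26, replicate 1, held 1242 CPM, above 3.73 to 52.7 CPM. A pair of nurses lay low. Colony 107 at day 26, replicate 3 #2, held 313 CPM, below 1268 to 1347 CPM, and colony 137 at day 7, replicate 1, held 65.1 CPM, below 3565 to 4210.3 CPM.

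For the rare genes, the forager of colony 109 at day 7, replicate 3, held 13.1 CPM of Hex70c, above 3.55 to 4.06 CPM, and replicate 1 of that group held 12.4 CPM of Hex70b, above 0 to 2.02 CPM. Replicate 3 of that group is among the libraries of another mitochondrial profile, as is the forager of colony 115 at day 26, replicate 1. Colony 122 forager day 26 replicate 2 and colony 107 nurse day 7 replicate 1 stood out in both Hex70a and Hex110.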

How the results depend on the processing

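The role differences of Hex70a, Hex110 and Hex70c over both days and at day 7 kept their direction and passed in all 21 alternatives, as did those of Hex70a and Hex110 at day 26. Hex70c missed at day 26 without the libraries marked #2 (-0.93). The causes of the changes below were not tested, beyond the smaller number of libraries in leave-outs. Without replicate 1, colony 127 drops out of the contrasts.

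The day difference of Hex70a over both roles missed the threshold without the libraries marked #2 (-0.97), colony 109 (-0.78), colony 137 (-0.66) or the libraries of another mitochondrial profile (-0.76) and with summed counts (-0.83), and ran between -1.31 and -0.94 without replicates. Within nurses, Hex70a missed without the #2 libraries (-1.39), colony 109 (-1.24), 122 (-1.17) or 137 (-1.29) and with summed counts (-1.27), with -2.31 to -1.15 without replicates. Hex110 missed without the #2 libraries (-1.21), colony 109 (-1.30), 115 (-1.53), 122 (-1.16) or 137 (-1.35) and with summed counts (-1.27), with -2.43 to -1.26 without replicates.

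Signs turned only for values that did not pass. The day difference of Hex70c became 0.026 with unscaled totals, 0.024 without colony 109, 0.10 without colony 137 and 0.0027 with summed counts, and ran between -0.095 and 0.021 without replicates. Within foragers, Hex70c gave -0.080 without colony 115 and 0.00 without the colony 122 forager. Hex110 there gave -0.056 without colony 122, -0.058 without that forager and -0.057 without the 4 libraries whose gland transcripts go against their role, and -0.65 to 0.64 without replicates.

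Unscaled totals shifted the median log2 fold change of all genes between roles by 0.24 (0.19 at day 26, 0.28 at day 7) and called 4651 genes (293 lower and 4358 higher, against 1002 and 1029), with 2691 at day 26 and 3834 at day 7, and 1943 between colonies. Without the #2 libraries the counts were 1344 for role, 623 at day 26, 758 at day 7, 496 between days in nurses, 760 in foragers, 15 for the interaction and 442 between colonies. Without replicates they ran 514 to 852 for role at day 26, 754 to 1057 at day 7, 822 to 1363 for day, 389 to 831 in nurses, 436 to 796 in foragers, 11 to 19 for the interaction, 281 to 853 between colonies, 0 to 2 for colony by role and 0 to 37 for colony by day. Without colony 107, 614 genes differed between roles at day 26. The interaction called 36, 20, 26, 35 and 27 without colonies 107, 109, 122, 127 and 137, 14 with summed counts and 85 in the DESeq2 test, against 56. Between colonies, 596 were called without colony 107, 674 without 137 and 511 with summed counts, against 1203. Colony by day called 5 with DESeq2 size factors, unscaled totals or no Mrjp genes, 0 with no filter or without colony 107, 109, 115, 137 or the 4 gland libraries, 6 and 16 without colonies 122 and 127, and 14 without the libraries of another mitochondrial profile, against 3.

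Replicate numbers did not pair the libraries (r of deviations between roles -0.07, -0.06 and -0.04 for numbers 1, 2 and 3, and 0.11, -0.04 and 0.09 between days). With a replicate block, 2007 genes differed between roles against 2031, 0 for colony by day against 3, and Hex110 was called in 3 colonies rather than 4.

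Among correlations, Hex70a with Hex110 in foragers at day 26 fell to 0.40 without the 2 farthest libraries. Those that newly passed were Hex70a with Hex70c in nurses at day 26 (0.50 with a prior count of 0.5, 0.52 when centred on the colony), Hex70b with Hex70c in foragers at day 26 (0.59, prior count 0.5) and in nurses at day 7 (0.57, centred), and Hex70c with Hex110 in nurses at day 26 (0.49, centred). Of those that did not pass, signs turned in foragers for Hex70a with Hex70b at day 26 (0.040 centred, 0.28 without the 2 farthest), Hex70a with Hex70c at day 26 (0.003 centred) and day 7 (0.060 without the 2 farthest), and Hex70c with Hex110 at day 7 (-0.064, centred). The colony tests with DESeq2 were not run, and summed counts allow no test of colony by role or day. A hexamerin at a few counts a library, as Hex70b and Hex70c, limits the differences that could be seen.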
